A study of Mus musculus with 6 samples.

Results

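The genes described here encode the vacuolar ATPase, the cathepsins and the Lamp proteins of the lysosomal membrane, as measured in whole mouse lenses with and without Cd24a. They were chosen by gene symbol from the deposited counts, as symbols that start with Atp6v0 or Atp6v1, a Cts symbol with 1 further letter (and at most 1 digit), Lamp1 to Lamp3, Atp6ap1 and Atp6ap2. This gave 48 genes of the 55416 in the table. Each of the 3 knockout samples held 2 lenses of animals with a germline deletion of Cd24a (strain label C57BL/6), and each of the 3 wild-type samples held 2 lenses of animals with the strain label C57BL/har. All animals were 8 weeks old in the sample labels and 7 weeks old in the series text, and no other treatment or allele is named. Strain and genotype cannot be told apart in this design, the deletion affects all cells of the animal, and total RNA of the whole lens was read after removal of ribosomal RNA. With whole lenses, fewer cells of a type and less RNA per cell cannot be told apart.

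The vacuolar ATPase is a rotary proton pump with a cytosolic sector (V1) that splits ATP and a membrane sector (V0) that passes protons into lysosomes, endosomes and Golgi vesicles. The acid it makes activates the cathepsins, a group of lysosomal proteases named by letter, while Lamp1 and Lamp2 are heavily glycosylated proteins that line the inner face of the lysosomal membrane. Lens fibre cells degrade their organelles as they mature, so that lysosomes are found in the epithelium and the outer, younger fibres.

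The libraries held 5384542 to 7302951 gene counts. Cd24a had 17514 to 20656 counts in each wild-type library and 45 to 71 in each knockout library, so each library followed its genotype label. Crybb2 and Cryaa, crystallins that define lens fibres, were at 136470 and 81202 CPM (counts per fixed number of library counts, after scaling) in wild type. Of 7 fibre markers tested, 6 had a log2 fold change below 0, with a median of -0.09. Bfsp2 was the 1 called lower (log2 -0.27, edgeR adjusted p = 0.0028). The summed level of the fibre markers overlapped, at 239883 to 254294 CPM in wild-type lenses and 223438 to 252954 CPM in knockout lenses. Lim2, a fibre membrane protein, had no count in any library, and whether its reads were lost in counting was not tested. Libraries numbered 3 of both groups had over 100 Xist counts and the others did not, a female pattern in 1 library of each group. Summed marker levels of other cell types and of the lens epithelium lay apart between the groups, except those of photoreceptors and macrophages, which overlapped. The summed level of 4 epithelial markers ran from 408 to 419 CPM in wild-type lenses and from 364 to 375 CPM in knockout lenses (1 called lower, Gja1). Of these, Gja1 and Cdh1 had log2 fold changes of -0.41 and -0.24, and Pax6, the most abundant, and Foxe3 had 0.02 and 0.05. The summed level of 11 pigment epithelium markers ran from 53.7 to 79.9 and from 27.6 to 40.6 CPM (4 of 7 tested called lower). That of 10 photoreceptor markers ran from 189 to 481 and from 179 to 311 CPM (1 called lower). Although these sums overlapped, all 10 photoreceptor markers had a log2 fold change below 0, with a median of -0.72. An unadjusted edgeR p up to 0.05 was found for 8 of them, against 10.7% of all genes tested that had such a p and lay lower. The sum of 5 cornea markers, nearly all of it Aldh3a1, ran from 83.6 to 94.6 and from 56.9 to 75.4 CPM. Blood markers were at 0 to 0.28 CPM and 1.10 to 6.66 CPM, and vessel markers at 57.0 to 63.0 and 67.3 to 72.1 CPM. Of the 5 blood markers 0 had enough counts to be tested, and of the 5 vessel markers 1 had (log2 0.20). The part of these markers in the values below was not tested beyond a photoreceptor and pigment epithelium score. That score was 0.38, -0.087 and 0.66 in wild-type replicates 1, 2 and 3 and -0.087, -0.57 and -0.30 in the knockout replicates. It was thus mostly higher in wild type, and a fit with it cannot tell the part of the markers from genotype.

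Of the 48 genes, 31 had enough counts to be tested, 7 had some counts but too few, and 10 had no count in any library. A call required an adjusted p no higher than 0.05 (edgeR quasi-likelihood test, Benjamini-Hochberg adjustment over all 11474 genes tested). The test called 3 of the 31 lower in the knockout, Atp6v0c, Atp6v1f and Ctsl, and 0 higher by edgeR, DESeq2 or limma-voom. Over all genes tested, 7.50% were called, 4.48% lower and 3.02% higher. At an unadjusted p of at most 0.05, 10 of the 31 lay lower and 1 higher, against 10.7% and 9.47% of all genes tested. The groups did not overlap for 10 genes that were lower in the knockout and 1 that was higher, where the same held for 12.4% and 12.1% of all genes. The median log2 fold change of the 31 genes was -0.10, against 0.0043 over all genes tested, and 21 of the 31 lay below 0, as did 49.3% of all genes tested. Scaling by library size alone put the median of the 31 at 0.0099 and that of all genes at 0.11.

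**Figure D1:**
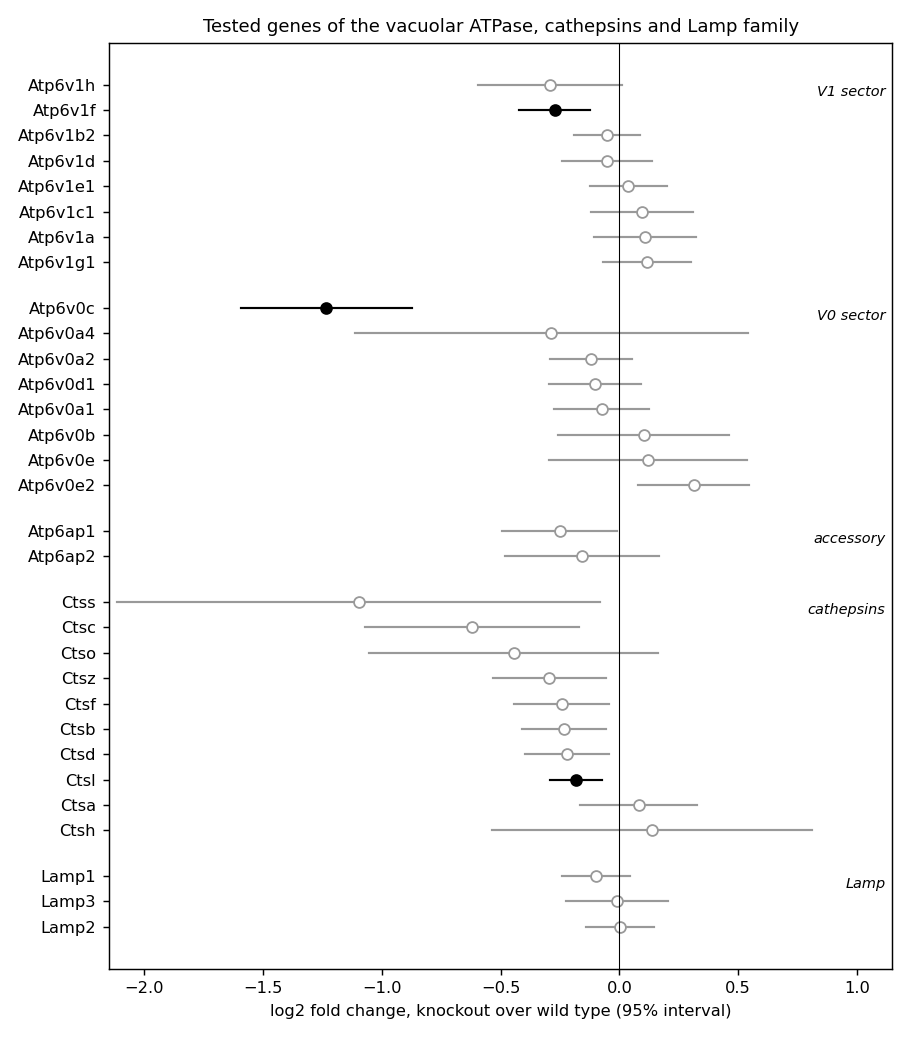
Log2 fold change of each of the 31 tested genes, knockout over wild type, with its 95% interval (horizontal bars), grouped by role. Filled black points mark the 3 called genes; Atp6v0c, at -1.23, lies apart from the other subunits of the pump, which lie between -0.29 and 0.31.

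Atp6v0c (ENSMUSG00000024121, chromosome 17) encodes the proteolipid c, the small membrane protein whose copies form most of the rotating ring of V0 through which protons pass. Its level was 12.8, 16.3 and 14.9 CPM in wild-type replicates 1, 2 and 3 and 5.94, 6.74 and 5.89 CPM in the knockout replicates. The lowest wild-type library was thus above the highest knockout library. The mean fell from 14.7 ± 1.73 to 6.19 ± 0.48 CPM (SD, n = 3 each), a 2.35-fold decrease (log2 -1.23, SE 0.17, edgeR adjusted p = 5.92e-05). In counts, these were 90, 103 and 92 reads against 33, 43 and 32. Atp6v0c was called under all 18 alternatives tried, the sum with its pseudogenes among them, with adjusted p from 4.02e-09 to 0.0037. Amdhd2 and Tbc1d24, the protein-coding genes on either side of it in GENCODE M21, had log2 fold changes of -0.10 and -0.0015 and did not pass (edgeR adjusted p = 0.93 and 0.999).

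An annotated pseudogene, Atp6v0c-ps2 on chromosome 6, had counts of the opposite pattern. It had 0, 0 and 2 counts in wild-type lenses and 11, 15 and 3 in knockout lenses, on an annotated length of 465 bp. Both groups had few reads, and all 3 knockout libraries lay above all 3 wild-type libraries. The ratio of the summed counts, scaled to depth, was 16.3 (95% exact interval 4.12 to 141, for counting error only). Both wild-type counts were in replicate 3, and without that library the ratio has no finite value. Too few counts kept this pseudogene out of the main test, and with no filter on low counts it was called higher (log2 3.77, SE 0.82, edgeR adjusted p = 2.48e-04). Its reads were 0.697% of the summed counts of Atp6v0c and its pseudogenes in wild-type lenses and 21.2% in knockout lenses. A second copy on chromosome 7, Atp6v0c-ps1, had 0 counts in all 6 libraries.

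The gene and this pseudogene are nearly the same in sequence, which is why both are shown. The 465 bases of Atp6v0c-ps2 aligned to the coding sequence of Atp6v0c without a gap and with 464 identical bases (99.8%) in the GENCODE M21 transcripts of build GRCm38. The single difference was T111C, with the base of Atp6v0c first and positions counted from 1 at the A of its start codon. Positions 81 to 141 are printed below from 5′ to 3′, with the differing base in capitals.
Atp6v0c: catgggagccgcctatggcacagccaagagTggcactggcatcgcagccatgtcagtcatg
Atp6v0c-ps2: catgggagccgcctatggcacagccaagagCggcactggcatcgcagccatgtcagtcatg
Atp6v0c-ps1 differed at 11 bases and lacked 2, an identity of 97.2%. The longest identical stretch between Atp6v0c and Atp6v0c-ps2 was 354 bases, so reads from the coding part cannot be assigned to either copy with confidence, and the treatment of reads with several matches is not stated in the labels or headers. The coding transcript of Atp6v0c is 1183 bases long, so most of it lies outside the aligned part.

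The sum of Atp6v0c and its pseudogenes was also lower in the knockout. It was 12.8, 16.3 and 15.2 CPM in wild-type lenses and 7.91, 9.09 and 6.44 CPM in knockout lenses, again without overlap. With the 3 rows added up before the fit, a choice made after the data were seen, the log2 fold change was -0.90 (SE 0.17, edgeR adjusted p = 0.0015). The sum holds only reads that were counted. If reads with several matches were left out of the counts, they are missing from the sum too, and this was not tested.

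**Figure D2:**
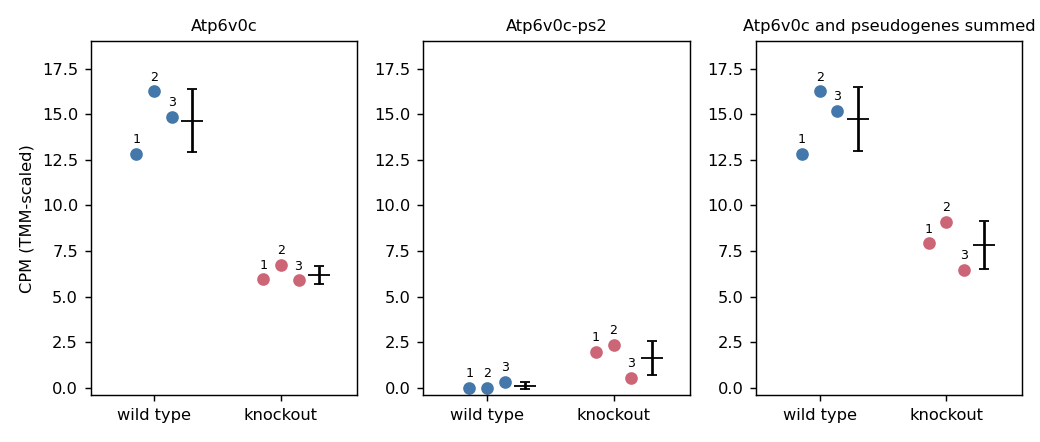
CPM of Atp6v0c, of its pseudogene Atp6v0c-ps2 and of all copies summed, in each library (points, numbered by replicate), with the mean and SD of each group (black bars, n = 3). The wild-type points lie above the knockout points for Atp6v0c and for the sum, and below them for the pseudogene.

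The other V0 subunits did not pass the test. Atp6v0e2, a small membrane subunit, had the highest log2 fold change, 0.31 (95% interval 0.080 to 0.55, edgeR adjusted p = 0.10). It was at 19.1, 20.2 and 17.3 CPM in wild-type lenses and 23.0, 24.6 and 22.6 CPM in knockout lenses, so the groups did not overlap. With library size alone it was called higher (log2 0.42, adjusted p = 0.022). Atp6v0b, which encodes the second kind of proteolipid in the ring, had a log2 fold change of 0.10 (95% interval -0.26 to 0.46, edgeR adjusted p = 0.81). It was at 11.7 ± 2.71 CPM in wild-type lenses and 12.6 ± 1.34 CPM in knockout lenses, and the groups overlapped. Atp6v0d1, which links the ring to the central stalk, was at 30.9 ± 0.60 CPM in wild-type lenses and 28.8 ± 0.68 CPM in knockout lenses (log2 -0.10, edgeR adjusted p = 0.62). The large a subunits, which anchor the stator and carry the channels for protons, are encoded by several genes. Atp6v0a1, Atp6v0a2 and Atp6v0a4 had log2 fold changes of -0.07, -0.12 and -0.29, and Atp6v0e had 0.12.

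In the V1 sector 1 of 8 tested genes was called. Atp6v1f, which encodes a subunit of the central stalk, was at 85.3, 81.6 and 77.5 CPM in wild-type lenses and 69.3, 63.6 and 69.9 CPM in knockout lenses. Every wild-type library lay above every knockout library. The mean fell from 81.5 ± 3.93 to 67.6 ± 3.46 CPM, or by 17.2% (log2 -0.27, SE 0.07, edgeR adjusted p = 0.020). This call was lost with library size alone, in DESeq2, without wild-type replicate 1 or 2, without knockout replicate 1 or 2 and with a photoreceptor and pigment epithelium marker score in the model (chosen after the data were seen), and adjusted p ran from 0.020 to 0.37 over the 18 alternatives. Its neighbour Atp6v1fnb had no count.

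The catalytic core of V1 had small differences that did not pass. Atp6v1a, which carries the catalytic sites, was at 28.9, 33.5 and 28.0 CPM in wild-type lenses and 33.3, 29.5 and 34.9 CPM in knockout lenses (log2 0.11, 95% interval -0.11 to 0.32). Atp6v1b2, its partner in the hexamer, was at 92.3 ± 2.87 CPM in wild-type lenses and 89.1 ± 5.13 CPM in knockout lenses (log2 -0.05, 95% interval -0.19 to 0.09). Both genes overlapped between groups. The stalk genes Atp6v1d, Atp6v1e1 and Atp6v1g1 had log2 fold changes of -0.05, 0.04 and 0.12. Among the regulatory subunits, Atp6v1c1, which leaves the complex when V1 detaches from V0, was at 0.10, and Atp6v1h was at -0.29 (95% interval -0.60 to 0.0097, edgeR adjusted p = 0.27).

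Both accessory genes lay lower without passing. Atp6ap1, a glycoprotein needed for assembly of V0, was at 24.5 ± 1.55 CPM in wild-type lenses and 20.5 ± 2.59 CPM in knockout lenses (log2 -0.25, edgeR adjusted p = 0.23). Atp6ap2, also known as the prorenin receptor, was at 11.3 ± 0.057 CPM and 10.1 ± 0.38 CPM (log2 -0.16, edgeR adjusted p = 0.64), with no overlap between the groups.

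Where a subunit has several genes, the lens used mainly 1 of them, except for the a subunit. Per kb of exon length, Atp6v0d1, Atp6v1b2, Atp6v1c1, Atp6v1e1 and Atp6v1g1 made up 98.4% to 99.9% of the level of their subunit in wild type. Their tissue-restricted counterparts were near 0. Atp6v1b1, known from kidney, had 2 counts in all libraries together, Atp6v0d2, known from osteoclasts, and Atp6v1c2 had 1 each, Atp6v1e2, known from testis, had 3, and Atp6v1g2, known from neurons, had 49. Atp6v1g3 had no count, which allows a level of up to 0.081 CPM over the 6 libraries (3 counts of 37165698, counting error only). The a subunit was split, with 56.6% ± 2.39 of the level from Atp6v0a2 in wild-type lenses and 56.0% ± 1.47 in knockout lenses, and most of the rest from Atp6v0a1. This share was taken over Atp6v0a1, Atp6v0a2 and Atp6v0a4, without Tcirg1, an a subunit gene outside the naming rule. The e subunit came mainly from Atp6v0e2, at 79.3% ± 1.83 in wild-type lenses and 81.5% ± 2.07 in knockout lenses. For 8 such shares, including that of Lamp1 below, exact permutation tests between the groups gave two-sided p from 0.20 to 1 (1 after adjustment over the 8), where 0.10 is the smallest p that 3 against 3 allows.

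Ctsl (ENSMUSG00000021477, chromosome 13), which encodes the cysteine protease cathepsin L, had the highest level per kb of exon length among the cathepsins, 58.1 ± 0.32 CPM per kb in wild type, ahead of Ctsd at 29.2 ± 3.01. Its reads were 60.6% to 62.7% of all cathepsin reads in wild-type libraries and 60.9% to 62.9% in knockout libraries. Its level was 377, 379 and 375 CPM in wild-type lenses and 326, 330 and 340 CPM in knockout lenses. The wild-type libraries were close to one another and all above the knockout. The mean fell from 377 ± 2.07 to 332 ± 7.36 CPM, or by 11.9% (log2 -0.18, SE 0.05, edgeR adjusted p = 0.038). It was called in 9 of 18 alternatives, and the calls lost included those with library size alone, with no low-count filter, with the marker score in the model and when any library other than knockout replicate 3 was left out, and adjusted p ran from 0.013 to 0.40 over the alternatives. GENCODE M21 places a pseudogene and an antisense transcript within Ctsl, and whether the counting used strand is not stated in the labels or headers.

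Most other cathepsins lay lower in the knockout without passing on their own. Of 10 cathepsin genes tested, 8 had a log2 fold change below 0, with a median of -0.24, and 7 had an unadjusted p of at most 0.05, all lower, against 10.7% of all genes tested that had such a p and lay lower. Only Ctsl passed the adjustment. Summed over the family, cathepsins were at 601, 623 and 618 CPM in wild-type lenses and 519, 541 and 546 CPM in knockout lenses. No library of one group overlapped the other, and without Ctsl the sums were 224 to 244 CPM and 193 to 211 CPM. In TPM, which scale each library to its summed level per length, the sum had a log2 ratio of 0.0095 between the groups, which then overlapped. With library size alone the median of the 10 genes was -0.13, while that of all genes was 0.11.

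Ctsd, the main aspartic protease of lysosomes, was at 60.8, 74.5 and 70.8 CPM in wild-type lenses and 55.6, 57.3 and 64.0 CPM in knockout lenses (log2 -0.22, 95% interval -0.40 to -0.042, edgeR adjusted p = 0.13). The highest knockout library lay above the lowest wild-type library, and without wild-type replicate 1 the gene was called lower (log2 -0.30, adjusted p = 0.040). Ctsb, a cysteine protease with carboxydipeptidase activity, was at 58.8 ± 5.84 CPM and 49.9 ± 2.61 CPM (log2 -0.23, edgeR adjusted p = 0.11). Ctsz, a carboxypeptidase, was at 28.3 ± 1.14 and 23.0 ± 3.47 CPM (log2 -0.29, adjusted p = 0.13), and Ctsf, a cysteine protease, at 40.3 ± 3.77 and 34.0 ± 2.54 CPM (log2 -0.24, adjusted p = 0.14). Ctsb, Ctsz and Ctsf did not overlap between the groups. Ctsa, the carboxypeptidase that stabilises β-galactosidase and neuraminidase, lay on the other side of 0, at 22.3 ± 2.35 and 23.6 ± 2.78 CPM (log2 0.08, adjusted p = 0.77).

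Ctss and Ctsc, both scarce, had the lowest fold changes of the family. Ctsc, a dipeptidyl peptidase that activates serine proteases of immune cells, had 60, 44 and 58 counts in wild-type lenses and 29, 41 and 24 in knockout lenses (log2 -0.62, 95% interval -1.07 to -0.17, edgeR adjusted p = 0.092). Ctss, a protease of antigen-presenting cells, had 13, 19 and 16 counts against 6, 13 and 1 (log2 -1.10, 95% interval -2.12 to -0.080, adjusted p = 0.21). The log2 fold change of Ctss was -1.92 without knockout replicate 2 and -0.63 without knockout replicate 3, and it was called in 0 of 18 alternatives. Ctsc did not overlap between the groups once scaled to depth and Ctss did, with knockout replicate 3 far below the other libraries. Ctso and Ctsh, both cysteine proteases, had log2 fold changes of -0.45 and 0.14. Markers of macrophages were scarce. Their sum over 12 genes overlapped between the groups, at 8.05 to 13.3 CPM in wild-type lenses and 6.12 to 10.8 CPM in knockout lenses, 9 of the 12 had too few counts to be tested, and none was at 0 in all libraries. Lyz2, the most abundant of them in wild type, had 17, 14 and 25 counts against 3, 10 and 9, without overlap (log2 -1.17, edgeR adjusted p = 0.11). Csf1r and Mrc1, the others tested, had log2 fold changes of -0.0020 and 0.13. The part of these markers in the cathepsin values was not tested. With the photoreceptor and pigment epithelium score in the model, the median of the 10 cathepsins was -0.33. As that score mostly followed genotype, this value does not give the part of those markers.

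The remaining cathepsins were not detected. Ctse, Ctsk, known from osteoclasts, Ctsw, known from lymphocytes, and the rodent placental cathepsins Ctsj, Ctsm, Ctsq and Ctsr had no count, and Ctsg, a neutrophil serine protease, had 1.

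**Figure D3:**
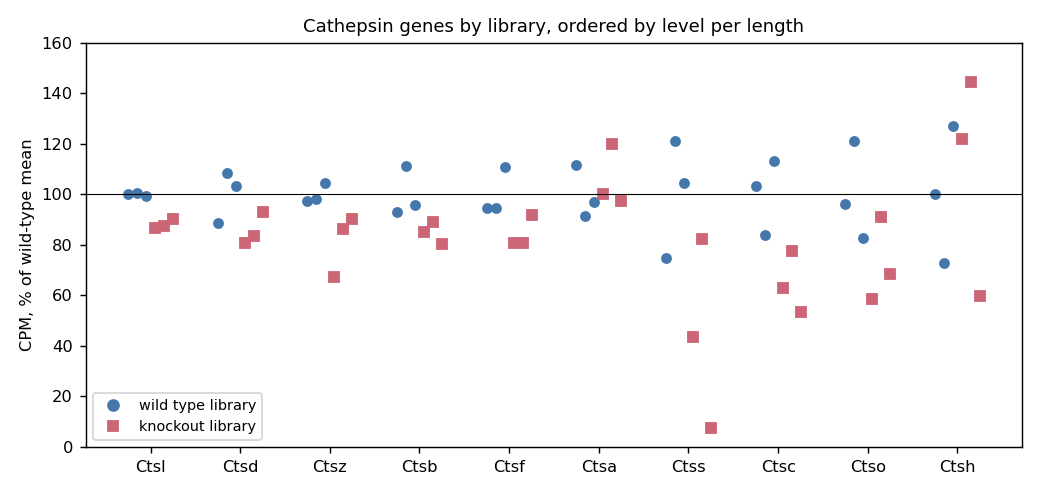
CPM of each tested cathepsin gene in each library, as a percentage of the wild-type mean of that gene (horizontal line at 100%), ordered by level per kb. For Ctsl the knockout libraries sit below all wild-type libraries; for Ctsa and Ctsh the groups overlap.

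No Lamp gene passed the test. Lamp2, which also serves as the receptor of chaperone-mediated autophagy, was at 67.2, 67.9 and 67.8 CPM in wild-type lenses and 67.1, 66.4 and 69.7 CPM in knockout lenses (log2 0.0021, 95% interval -0.14 to 0.15, edgeR adjusted p = 0.99). Lamp1 was at 103, 118 and 103 CPM against 105, 98.5 and 99.3 CPM (log2 -0.10, 95% interval -0.24 to 0.04, adjusted p = 0.47). Lamp3, known from dendritic cells and lung, was measured at 32.5 ± 3.23 and 32.3 ± 2.99 CPM (log2 -0.0081, adjusted p = 0.98). All 3 overlapped between the groups, and the sign for Lamp1 and Lamp3 turned with library size alone. Lamp1 made up 85.1% ± 0.95 of the Lamp1 and Lamp2 level per kb in wild-type lenses and 84.2% ± 0.63 in knockout lenses.

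Levels of different genes were compared per kb of exon length (CPM per kb). Atp6v1f had the highest level in wild type, 76.6 ± 3.69 CPM per kb, followed by Ctsl at 58.1 ± 0.32, Lamp1 at 40.4 ± 3.26, Atp6v1g1 at 37.1 ± 2.51 and Ctsd at 29.2 ± 3.01. The ranges of mean ± SD of Lamp1 and Atp6v1g1 overlapped. Ctsz (19.6 ± 0.79), Atp6v1b2 (17.4 ± 0.54), Atp6v1e1 (17.3 ± 1.37) and Atp6v0d1 (17.2 ± 0.33) came next, and the last 3 of these were within 1 SD of each other. Atp6v1a was at 4.98 ± 0.49 CPM per kb, below its partner Atp6v1b2. Atp6v0c, the ring protein present in several copies per pump, was at 4.33 ± 0.51 in wild-type lenses and 1.83 ± 0.14 CPM per kb in knockout lenses. Atp6v0b, its partner in the ring, was at 5.71 ± 1.32 and 6.12 ± 0.66 CPM per kb. Lengths are those of all exons joined, 1063 bp for Atp6v1f and 9746 bp for Atp6v1h, so a gene with unused annotated exons gets too low a value. Ctsl was divided by 6489 bp, and before division it was at 377 CPM in wild type, against 81.5 CPM for Atp6v1f. The order of Atp6v1f and Ctsl thus depends on these lengths. For Atp6v0c that length is 3384 bp, against 1183 bases for its coding transcript. Its level may thus be too low, and so may that of Atp6v0b, whose joined exons are 2051 bp long. Which of these levels is affected more was not tested.

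**Figure D4:**
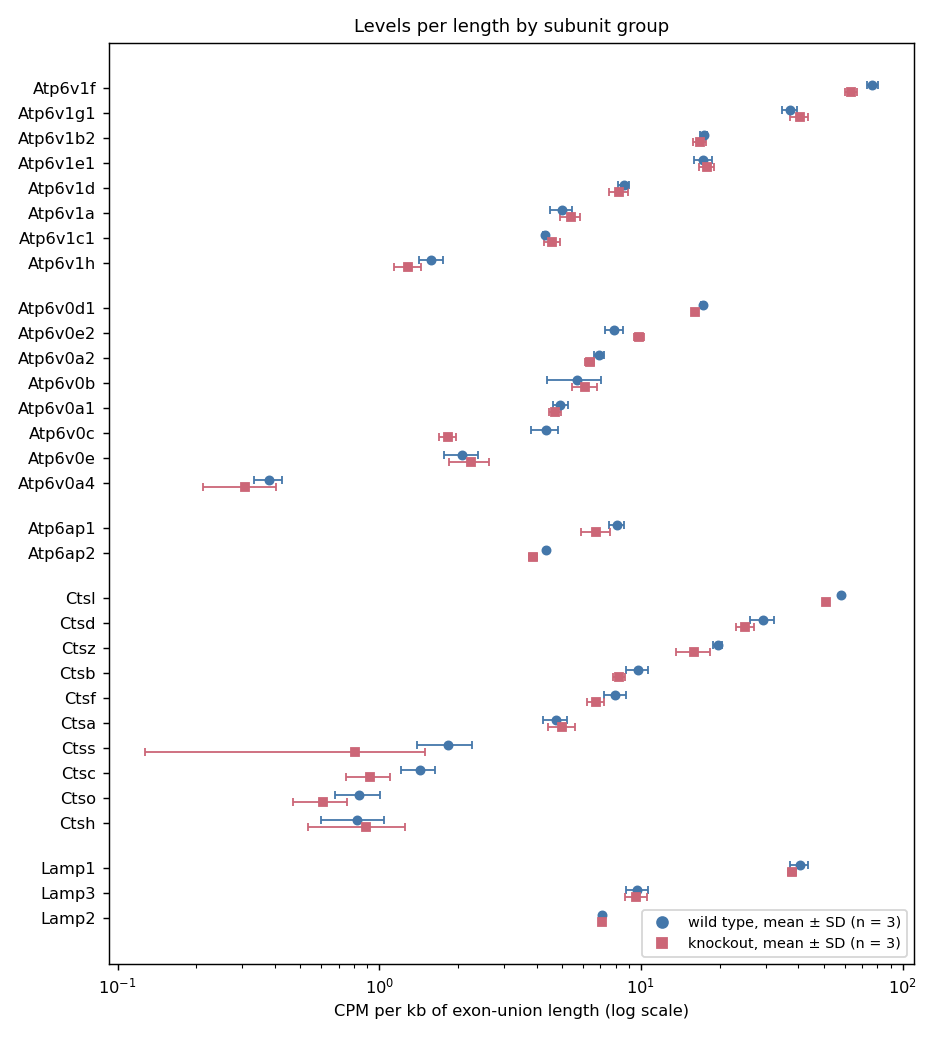
Level of each tested gene in CPM per kb of exon-union length on a log axis, in wild type (circles) and knockout (squares), with SDs over 3 libraries. Atp6v1f and Ctsl lead in both groups, and Atp6v0c moves from 4.33 to 1.83 CPM per kb.

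The promoters of these genes were searched for the E-box CACGTG (the same on both strands), the core of the element bound by TFEB and its relatives, transcription factors known to drive lysosomal genes. RefSeq promoter windows on GRCm38.p6 (250 bases before to 50 after the annotated start) were found for 24 of the 31 tested genes. Atp6v0a2, Atp6v1b2, Atp6v1c1, Atp6v1g1, Atp6v1h, Ctsb and Ctsh had no entry. The motif was in 9 of 27 promoters of tested genes (33.3%), where it was in 7.15% of all 32851 promoters and in 10.3% of those of all genes tested. The longer form TCACGTG on either strand, which contains the E-box, was in 7 of the 27 (25.9%), against 3.77% and 6.19%. Lamp1 held 4 matches, Atp6v0b, Ctsd and 1 of the windows of Ctsa held 2, and Atp6v0d1, Atp6v0e, Atp6v1a, Ctsf and Ctsl held 1. None of the 12 untested genes with a window held one. Such matches describe the sequence and do not show a bound site.

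The windows of 4 genes are printed from 5′ to 3′ with each CACGTG in capitals, to set the gene that changed most beside genes with several matches. They are Atp6v0c (chr17:24169629-24169928, minus strand), Atp6v0b (chr4:117887280-117887579, minus strand), Lamp1 (chr8:13158911-13159210, plus strand) and Ctsd (chr7:142387778-142388077, minus strand).
Atp6v0c: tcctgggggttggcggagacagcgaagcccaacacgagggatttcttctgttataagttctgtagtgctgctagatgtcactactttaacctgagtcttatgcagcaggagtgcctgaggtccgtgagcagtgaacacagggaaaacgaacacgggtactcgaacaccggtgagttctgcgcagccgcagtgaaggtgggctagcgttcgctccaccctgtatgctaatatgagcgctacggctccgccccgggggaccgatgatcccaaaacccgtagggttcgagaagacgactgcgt
Atp6v0b: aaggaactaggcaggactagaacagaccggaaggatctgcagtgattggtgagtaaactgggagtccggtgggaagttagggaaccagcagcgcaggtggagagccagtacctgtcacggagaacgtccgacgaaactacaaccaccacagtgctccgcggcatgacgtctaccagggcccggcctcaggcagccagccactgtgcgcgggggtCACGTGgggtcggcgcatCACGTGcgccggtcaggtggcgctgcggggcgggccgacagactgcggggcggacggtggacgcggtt
Lamp1: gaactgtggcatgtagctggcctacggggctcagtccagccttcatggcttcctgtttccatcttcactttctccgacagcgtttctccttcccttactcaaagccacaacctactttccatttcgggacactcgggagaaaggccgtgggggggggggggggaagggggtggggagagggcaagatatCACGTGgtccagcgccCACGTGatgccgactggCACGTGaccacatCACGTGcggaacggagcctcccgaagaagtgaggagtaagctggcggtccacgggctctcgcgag
Ctsd: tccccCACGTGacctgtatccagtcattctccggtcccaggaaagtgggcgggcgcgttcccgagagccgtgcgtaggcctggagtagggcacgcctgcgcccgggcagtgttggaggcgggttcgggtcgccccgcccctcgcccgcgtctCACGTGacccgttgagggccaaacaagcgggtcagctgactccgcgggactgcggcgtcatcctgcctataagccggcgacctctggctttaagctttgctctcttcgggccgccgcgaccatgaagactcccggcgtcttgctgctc
In Lamp1 the matches began 61, 45, 28 and 15 bases before the start, and in Atp6v0b 36 and 18 bases before it. Neither of these genes passed the test. Atp6v0c had no match in any of its 3 windows, which says only that these letters are not there. The median log2 fold change was -0.10 for the 9 tested genes with a match and -0.25 for the 15 with a window and no match, and these medians were not compared by a test.

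**Figure D5:**
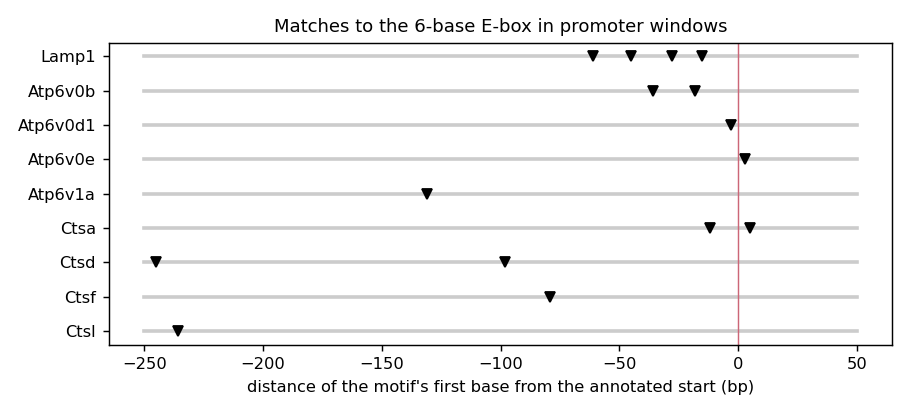
Position of each CACGTG match (triangles) relative to the annotated start (vertical line at 0) in the 300-base promoter windows of the 9 tested genes that hold one; for Ctsa the window with matches is drawn. In 4 of them (Lamp1, Atp6v0b, Atp6v0d1 and Ctsa) a match begins within 20 bases before the start.

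Other genes of the pathway were read from 6 lists. Of 94 listed genes tested, 4 were called lower and 0 higher by edgeR (14 had an unadjusted p up to 0.05), with a median log2 fold change of -0.03. Over all genes tested the shares were 4.48% lower, 3.02% higher and 20.2% with such a p. Scaling by library size alone gave 2 lower and 1 higher calls among them. The 33 hydrolases tested had a median log2 fold change of -0.12. Of these, 22 lay below 0, against 49.3% of all genes tested, and 7 had an unadjusted edgeR p up to 0.05. Summed over all 35 listed hydrolases, Lgmn included, the level was 667 to 707 CPM in wild-type lenses and 586 to 600 CPM in knockout lenses. Lgmn, which encodes legumain, the lysosomal asparaginyl endopeptidase that cleaves cathepsins into their 2-chain forms, was the 1 call among 33 hydrolases. It was at 119, 124 and 113 CPM in wild-type lenses and 68.7, 65.3 and 66.9 CPM in knockout lenses. The groups lay far apart, and the mean fell from 119 ± 5.58 to 67.0 ± 1.69 CPM (log2 fold change -0.82 with an SE of 0.07, edgeR adjusted p = 4.35e-08). Among 19 other membrane proteins and transporters, Laptm4b, a lysosomal transmembrane protein, fell from 20.8 ± 1.49 to 13.1 ± 1.71 CPM (log2 fold change -0.67 with an SE of 0.13, adjusted p = 0.0021). Among 20 genes of the TFEB family and of mTORC1 control at the lysosome, Tsc2, a brake on mTORC1, fell by 0.37 (edgeR adjusted p = 0.0032) and Mtor, the kinase itself, fell by 0.22 on the log2 scale (adjusted p = 0.048). Tfeb, Tfe3 and Mitf had log2 fold changes of -0.18, -0.18 and -0.21 and did not pass (adjusted p = 0.74, 0.67 and 0.30).

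The 8 partners and assembly factors of the pump, the 12 activators and sorting factors and the 2 cystatins tested gave no call by edgeR and no gene with an unadjusted p up to 0.05. Tcirg1, the a subunit gene outside the naming rule, known from osteoclasts, was at 0.96 CPM in wild-type lenses and 0.47 CPM in knockout lenses, too few counts to be tested. Cst3, the secreted inhibitor of cysteine cathepsins, was at 122 CPM in wild-type lenses and 111 CPM in knockout lenses (log2 -0.13, edgeR adjusted p = 0.29).

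The authors' deposited table lists all 31 tested genes. In the authors' deposited table Atp6v0c has a signed fold change of -2.35 with a q-value of 2.66e-08, Atp6v1f has -1.21 with 0.036, and Ctsl has -1.13 with 0.11. Atp6v0c and Atp6v1f are the 2 of these genes with a q-value of at most 0.05 in the authors' deposited table, where 7.02% of all genes pass that threshold.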

How the data were processed

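Deposited by the authors were raw counts of reads for each gene in 6 libraries (Ensembl release 104 features), with exon-union length (used here in kb) and GC fraction, per the file headers. The authors' deposited comparison table gives a signed fold change (a score), edgeR p-values, Storey q-values and mean FPKM per group. HISAT2, HTSeq, edgeR and GRCm39 are named in the submitters' processing notes without roles or settings.

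Counts were turned into CPM with TMM factors. After filterByExpr by genotype, 11474 genes were tested by the quasi-likelihood test of edgeR 4.0.16 (with limma 3.58.1 under R 4.3.3), two-sided, adjusted over all of them. SEs are the size of the log2 fold change over the square root of its F statistic. The series text calls the samples of a group biological replicates; whether they share litters is not stated. Alternatives were other scalings and filters, DESeq2 1.42.0, limma-voom, a replicate block, a sex term from Xist and leaving out each library; summing Atp6v0c with its pseudogenes and a marker score (mean log2 CPM of photoreceptor and pigment epithelium markers) were chosen after the data were seen. Sequences were aligned with Biopython 1.88. Coordinates are given only for RefSeq windows on GRCm38.p6, another build than the counts. Named were all members (by their counts where untested), the called genes of each pathway list and the most abundant markers. Tcirg1, Cst3, Tfeb, Tfe3, Mitf, Csf1r, Mrc1, Gja1, Cdh1, Foxe3, Lim2, Bfsp2, Aldh3a1 and the neighbours of Atp6v0c were chosen after their values were seen. The members and lists were chosen with earlier results of these data known.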

Additional observations from a re-analysis of the deposited data

How the results depend on the processing

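Comparing each member's log2 fold change with each alternative, 517 values kept direction and side of the threshold, 23 reversed, 16 lost a call and 2 gained one. Calls over all genes went from 514 lower and 347 higher to 336 lower and 1008 higher with library size alone, to 355 lower and 219 higher in DESeq2, and from 861 to 277 in all with the marker score; without single libraries they ran from 368 to 485 lower and from 194 (without knockout replicate 1; 196 without wild-type replicate 1) to 297 higher. As the marker score mostly followed genotype, calls lost with it cannot be assigned to the markers. Of the members, 1 (Atp6v0c) was called lower with library size alone and with the marker score, and 1 to 3 without single libraries (1 without wild-type replicate 2 or knockout replicate 1 or 2). The member called higher was Atp6v0e2 with library size alone (1) and Atp6v0c-ps2 with no filter (1) and when any single wild-type library or knockout replicate 3 was left out (0 to 1 over the libraries). Pathway lists had 2 lower and 1 higher calls with library size alone. The difference between the groups in each paralogue share moved by less than the larger of the groups' SDs. The shares themselves depend on length, and by raw counts Lamp1 was at 61.5% in place of 85.1% and Atp6v0e2 at 71.1% in place of 79.3% in wild type.

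Members that did not pass changed sign as follows, and the cause was not tested. With library size alone Atp6v0a1 was at 0.0343, Atp6v0d1 at 0.0099, Atp6v1b2 at 0.0589, Atp6v1d at 0.0600, Lamp1 at 0.0117 and Lamp3 at 0.1016; that scaling moves all genes up by about the same amount. With the marker score Atp6v0a1 was at 0.0488, Atp6v0b at -0.1673, Atp6v0e at -0.2770, Atp6v1b2 at 0.0048 and Lamp3 at 0.0800. Over the fits without single libraries, Atp6v0b ran from -0.0078 (without wild-type replicate 1) to 0.3053, Atp6v0e from -0.0232 (without knockout replicate 2) to 0.2477, Atp6v1e1 from -0.0048 (without wild-type replicate 3) to 0.1051 and Ctsa from -0.0212 (without knockout replicate 2) to 0.1720. Ctsh ran from -0.1300 (below 0 without wild-type replicate 2, at -0.0405, or knockout replicate 2) to 0.4155, and Lamp2 from -0.0197 to 0.0193. Lamp3 ran from -0.0884 to 0.0543 and was above 0 unless replicate 2 of a group was left out. The log2 ratio of summed levels, in TPM in place of CPM per kb, went from -0.06 to 0.17 for V0, -0.09 to 0.14 for V1, -0.22 to 0.0044 for accessory genes, -0.22 to 0.0095 for cathepsins and -0.07 to 0.16 for Lamp genes. In TPM the V0, V1 and Lamp sums lay higher in the knockout without overlap, and the accessory and cathepsin sums overlapped. In CPM per kb the V0 and V1 sums overlapped, and the accessory, cathepsin and Lamp sums lay lower in the knockout without overlap.

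Samples share replicate numbers across groups, but deviations of same-numbered libraries correlated at 0.054, -0.035 and 0.035, so the numbers were not taken as pairs. With the replicate block, 781 genes were called, Atp6v0c had a log2 fold change of -1.24 and Atp6v1f -0.27, both called, and Ctsl -0.18 with edgeR adjusted p = 0.079. Depth limits the scarce members, with SEs up to 0.49 for Ctss.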
